A study of Manihot esculenta with 9 samples.

Results

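MYB domain transcription factors were described in mature leaves of cassava (Manihot esculenta), a starchy root crop, from RNA-seq libraries of seedlings given PEG, given ABA, or left untreated. The members were all genes whose description in the authors' deposited table contains "myb domain protein", "myb-like transcription factor" or "myb transcription factor". This rule found 168 of the 33033 genes in the table, 158 of them described as a myb domain protein and 10 as a MYB-like transcription factor family protein. The name of each member, such as MYB73, is that of the Arabidopsis gene that the deposited table pairs with it, so several cassava genes can carry 1 name. The 168 genes matched 77 Arabidopsis genes, and 163 of them lie on chromosomes and 5 on unplaced scaffolds of the cassava genome v6.1.

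All plants were wild type and were raised from stem cuttings in sterile culture on MS medium for 60 days, so the MS control shares genotype, age and medium with both treatments. PEG6000, an osmotic agent that holds water back from roots, was added to 7%, and ABA (abscisic acid, the plant hormone of water shortage) was added to 50 μmol/L, each for 48 h before the leaves were taken. The series holds 3 libraries each for PEG, ABA and the MS control. The labels do not say that libraries of a group are of different plants, so p-values measure only the spread between these samples, which may be technical.

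MYB proteins bind DNA through 1 or more repeats of a helical domain, and the class with 2 repeats, the R2R3-MYBs, is among the most expanded transcription factor families of plants. In Arabidopsis, members of this class act as switches of stomatal aperture, of wax and cutin deposition, of flavonoid and anthocyanin synthesis, of lignified secondary walls and of the last divisions of the stomatal lineage. Single-repeat MYB-like proteins include factors of light signalling, nitrogen response and leaf growth. Water loss from a leaf passes through stomata and cuticle, and ABA acts on both.

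Total counts were 15847859 to 17108746 per PEG library, 14850183 to 15690202 per ABA library and 13923803 to 16378389 per MS library. The libraries carried leaf messages, as 81 photosynthesis genes listed as mesophyll markers summed to 15204 to 15426 FPKM per PEG library and 3974 to 4112 FPKM per ABA library, against 7514 to 7902 FPKM per MS library. Of the 69 that were tested, 60 were higher under PEG and 60 were lower under ABA than in the MS control. Genes for late embryogenesis abundant proteins and dehydrins, protectants of drying cells, went the other way under PEG, with 8 of 48 tested higher and 33 lower than in the MS control, against 17 higher and 16 lower under ABA. The labels hold no separate check of which libraries received PEG, so every direction below follows the labels. The comparison of PEG with ABA, whose values do not come from the MS libraries, is given beside the others for some genes. It uses the same PEG-labelled libraries, so it is no check of the labels. These are whole leaves, so fewer cells of a type and less RNA per cell cannot be told apart, and the part that the shift in photosynthesis genes has in any MYB result was not tested.

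MYB genes rose and fell in near equal number in both treatments, and single members moved by large amounts. Levels are the authors' FPKM values (reads scaled to transcript length and library depth), given for each library or as mean ± SD of the 3 libraries of a group. Over the 168 genes they summed to 1149 to 1189 FPKM per PEG library and 1276 to 1281 FPKM per ABA library, against 1484 to 1539 FPKM per MS library. Of the members, 11 had no read in any library, 77 averaged at least 1 FPKM in at least 1 group and 28 averaged at least 10 FPKM. Read counts were compared with edgeR's quasi-likelihood test over the 23984 genes left by its low-count filter, with Benjamini-Hochberg adjustment over all of them. Rose and fell are written of genes with an adjusted p under 0.05. The filter kept 90 members, which is 53.6% of the family, against 72.6% of all genes. The 78 members left out had at most 100 reads over the 9 libraries together. A member can pass the filter through the group where it is high, so the counts over the 90 are a description.

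Under PEG 32 of the 90 MYB genes rose and 30 fell, which is 68.9%, where 70.7% of all genes tested changed (35.6% rose and 35.1% fell). Under ABA 29 rose and 34 fell, which is 70%, where 66.3% of all genes changed (32.9% rose and 33.4% fell). Between PEG and ABA 35 were higher and 29 lower under PEG, which is 71.1% against 74.7% of all genes (39.1% higher and 35.6% lower). The share of MYB genes called was thus near the background in all 3 comparisons. The comparisons of PEG and of ABA with the MS control share the MS libraries, so their values for a gene are set side by side and not correlated. At least 2-fold, 18 rose and 18 fell under PEG, which is 40.0% beside 22.1% of all genes (12.4% and 9.72% by direction). Under ABA 16 rose and 20 fell by this much, again 40.0%, beside 19.4% of all genes (10.6% and 8.79%). Between PEG and ABA 21 were higher and 15 lower under PEG, also 40.0%, beside 28.9% of all genes (16% and 12.9%). The median size of the change, on the log2 scale, was 0.79 under PEG, 0.87 under ABA and 0.87 between PEG and ABA, beside 0.45, 0.41 and 0.54 over all genes. The signed median was 0.08 under PEG, -0.05 under ABA and 0.14 for PEG against ABA, beside 0.00, 0.00 and 0.05 over all genes. The FPKM values of 70, 65 and 68 members did not overlap between the groups in these 3 comparisons, where 74.7%, 70.4% and 79.1% of all genes tested did not.

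With a scaling to library size alone in place of TMM, the median of all genes was 0.14 for PEG against MS and 0.24 for PEG against ABA in place of 0 and 0.05, with 61% and 65.3% of the calls over all genes higher in place of 50.4% and 52.4%. The MYB genes then gave 38 rises and 28 falls for PEG against MS, and 42 and 23 for PEG against ABA.

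**Figure D1:**
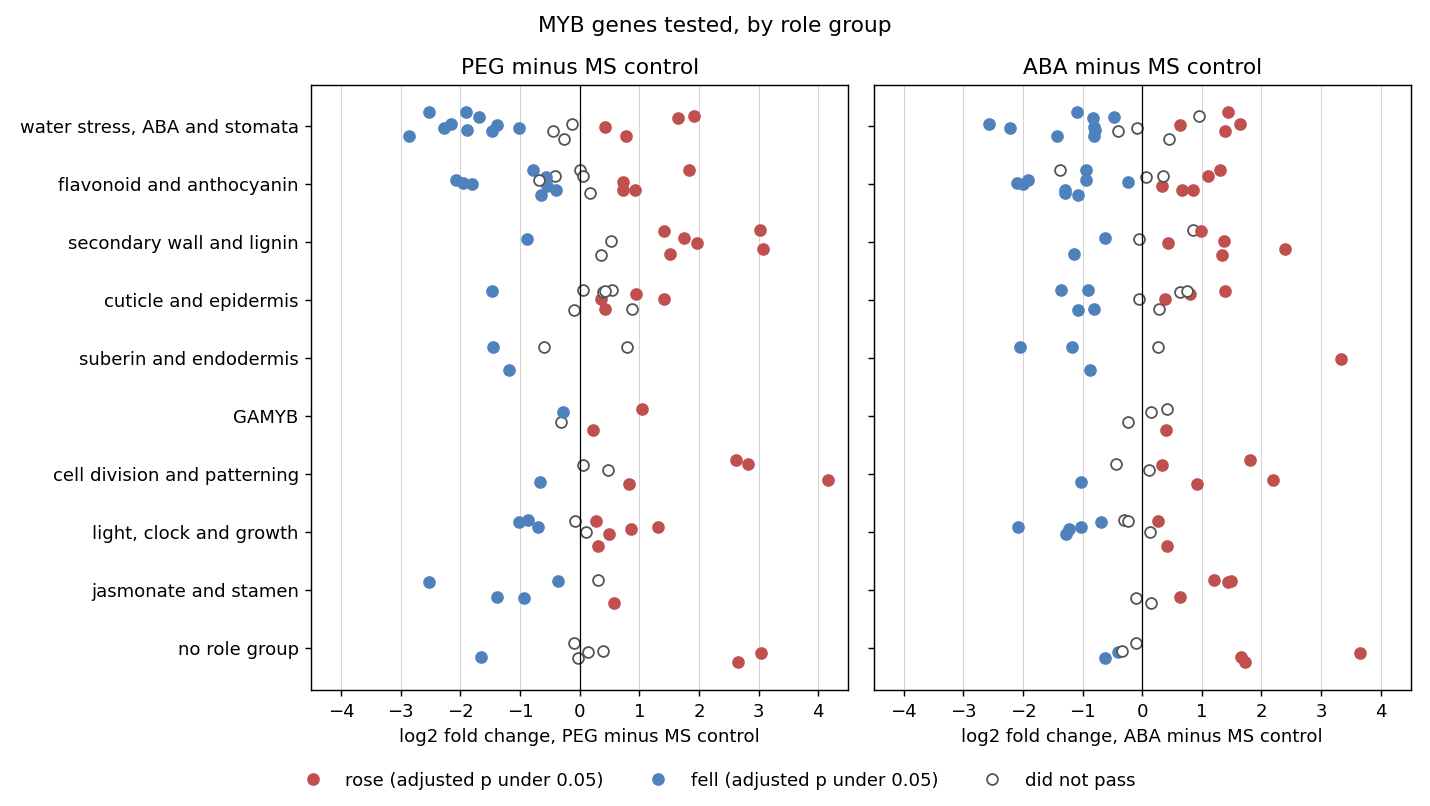
Log2 fold change of each MYB gene tested (horizontal axis) in PEG against the MS control on the left and ABA against the MS control on the right, by role group on the vertical axis, with red for genes that rose, blue for genes that fell and open circles for genes that did not pass. A gene in 2 groups is drawn in both, the vertical scatter within a group carries no meaning, and members with no read in 1 of the groups compared are left out (MYB111 Manes.03G201700 in both panels, MYB9 Manes.08G064800 in the PEG panel); the water stress group lies mostly left of 0 under PEG, the secondary wall group mostly right of it.

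Members were grouped by the role of their Arabidopsis namesake, which placed 145 of the 168 in at least 1 group. The plot of fold changes by role group shows both directions in most groups. In the water stress, ABA and stomata group, 17 of 22 members were tested, of which 4 rose and 10 fell under PEG and 4 rose and 9 fell under ABA, with medians of -1.39 and -0.48 on the log2 scale. In the secondary wall and lignin group, 9 of 31 were tested, of which 6 rose and 1 fell under PEG and 5 rose and 2 fell under ABA, with medians of 1.52 and 0.86. The rises under PEG include MYB42 Manes.06G136500 and MYB86 Manes.14G061700, each with 5 reads over the MS libraries. The filter on low counts kept both only through the PEG libraries, where they are high. The jasmonate and stamen group had 6 of 8 tested, with 1 rise and 4 falls under PEG and 4 rises and no fall under ABA. Those tested were 4 MYB62 and 2 MYB108 genes. The cuticle and epidermis group had 11 of 18 tested, with 4 rises and 1 fall under PEG and 3 rises and 4 falls under ABA. The flavonoid and anthocyanin group had 18 of 25 tested, with 5 rises and 8 falls under PEG and 5 rises and 9 falls under ABA. The cell division and patterning group had 7 of 9 tested, with 4 rises and 1 fall in each treatment. The light, clock and growth group, which holds the 10 MYB-like genes whatever their role, had 10 of 13 tested, with 5 rises and 3 falls under PEG and 2 rises and 5 falls under ABA. The suberin and endodermis group had 5 of 16 tested and the GAMYB group 4 of 7. These lists are short and share members, so each is given as a count only. Of all genes tested, 35.6% rose and 35.1% fell under PEG, and 32.9% rose and 33.4% fell under ABA. Those shares also stand beside the counts of the other gene lists in this report. The flavonoid and cell division groups, with 72.2% and 71.4% changed under PEG, were near the 70.7% of all genes.

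The MYB message pool of the leaf was carried by a few genes. The 10 most abundant members held 60.5% of the summed FPKM under PEG, 70.1% under ABA and 70.9% in the MS control. Most abundant overall was Manes.01G083900 (chromosome 1, 20933904 to 20938520), a MYB-like gene matched to AT5G47390, which in Arabidopsis encodes MYBH, also called KUA1, a factor of leaf cell expansion. It had 227, 254 and 261 FPKM in the PEG libraries and 216, 214 and 208 FPKM in the ABA libraries, against 192, 175 and 191 FPKM in the MS libraries. Its PEG and ABA libraries all lay above the MS libraries, and the differences were small, at 0.28 ± 0.05 (adjusted p = 0.000408) on the log2 scale (log2 fold change ± SE, as throughout) for PEG and 0.26 ± 0.05 (adjusted p = 0.000838) for ABA. PEG and ABA did not differ by the test, at 0.02 ± 0.05 (adjusted p = 0.714).

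MYBR1 and MYB73 genes, abundant in untreated leaves, fell in both treatments. MYBR1, known as MYB44 in Arabidopsis, acts in stomatal closure and ABA responses there, and MYB73 is its close relative. MYBR1 (Manes.18G042000, chromosome 18, 3618806 to 3620306) had 25.1, 24.5 and 22.8 FPKM in the PEG libraries and 55.5, 57.2 and 58.5 FPKM in the ABA libraries, against 169, 159 and 154 FPKM in the MS libraries. The 3 groups stand apart, with PEG lowest and the MS control highest. The log2 fold change was -2.87 ± 0.05 (adjusted p = 4.48e-13) for PEG, -1.43 ± 0.04 (adjusted p = 9.37e-11) for ABA and -1.44 ± 0.04 (adjusted p = 4.57e-11) for PEG against ABA.

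All 3 MYB73 genes that were tested fell in both treatments, and they differed in which treatment was lower. MYB73 Manes.13G118400 (chromosome 13, 24557909 to 24559460), the most abundant of them, had 69.6, 70.7 and 65.9 FPKM in the PEG libraries and 137, 140.2 and 138 FPKM in the ABA libraries, against 206, 207 and 192 FPKM in the MS libraries. Its log2 fold change was -1.69 ± 0.04 (adjusted p = 7.33e-12) for PEG and -0.48 ± 0.04 (adjusted p = 3.88e-07) for ABA. MYB73 Manes.12G108500 (chromosome 12, 24954790 to 24956195) showed the same order, with 29.3, 26.2 and 24.1 FPKM in the PEG libraries and 49.8, 50 and 48.6 FPKM in the ABA libraries, against 91.3, 91.03 and 86.2 FPKM in the MS libraries. It fell by 1.89 ± 0.06 (adjusted p = 1.19e-10) on the log2 scale under PEG and by 0.79 ± 0.06 (adjusted p = 2.19e-07) under ABA. MYB73 Manes.05G177900 (chromosome 5, 24459406 to 24460691) had the reverse order of the treatments, with 29.4, 29.2 and 28.1 FPKM in the PEG libraries and 19.95, 17.99 and 18.6 FPKM in the ABA libraries, against 119.7, 122 and 110.1 FPKM in the MS libraries. It fell by 2.15 ± 0.05 (adjusted p = 1.14e-11) under PEG and by 2.57 ± 0.05 (adjusted p = 4.72e-12) under ABA. PEG against ABA came to -1.21 ± 0.04 (adjusted p = 4.98e-11) for the copy on chromosome 13, -1.09 ± 0.06 (adjusted p = 8.13e-09) for that on chromosome 12 and 0.42 ± 0.05 (adjusted p = 1.79e-05) for that on chromosome 5.

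**Figure D2:**
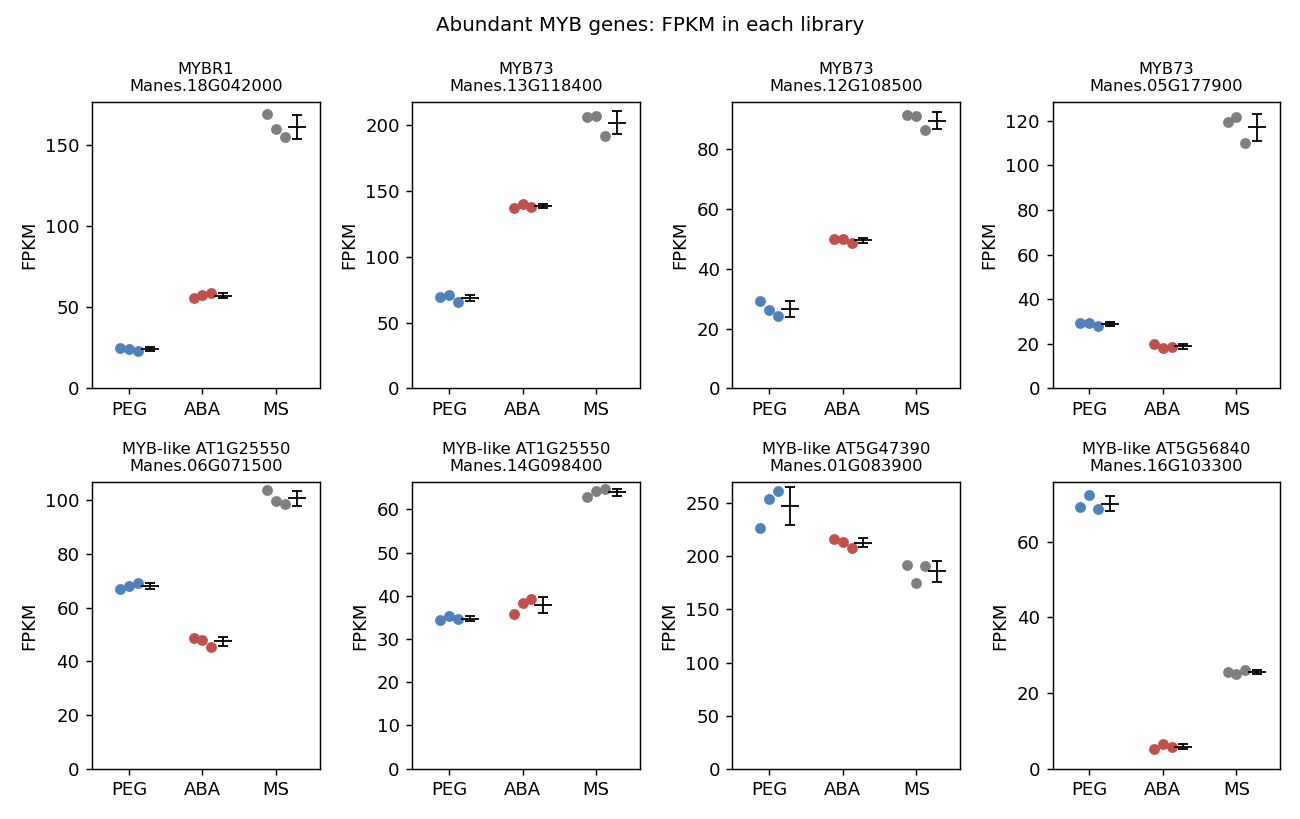
FPKM of 8 abundant MYB genes in each library (vertical axis, linear from 0; points are the 3 libraries of PEG, ABA and the MS control, bars beside them the mean ± SD). MYBR1, the 3 MYB73 genes and both genes matched to AT1G25550 lie highest in the MS control, and the MYB-like gene Manes.16G103300 lies highest under PEG and lowest under ABA.

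Among the single-repeat MYB-like genes, 2 groups behaved in different ways. The pair matched to AT1G25550 (HHO3 in Arabidopsis, a repressor of nitrate uptake and nitrogen starvation genes) fell in both treatments. Manes.06G071500 (chromosome 6, 18592772 to 18595064) had 67.1, 68.2 and 69.2 FPKM in the PEG libraries and 48.7, 48.1 and 45.5 FPKM in the ABA libraries, against 103.9, 99.9 and 98.5 FPKM in the MS libraries, and fell by 0.70 ± 0.04 (adjusted p = 6.53e-09) under PEG and by 1.02 ± 0.04 (adjusted p = 3.05e-10) under ABA on the log2 scale. Manes.14G098400 (chromosome 14, 7941708 to 7944077) had 34.3, 35.3 and 34.5 FPKM in the PEG libraries and 35.8, 38.4 and 39.3 FPKM in the ABA libraries, against 62.9, 64.2 and 64.6 FPKM in the MS libraries, and fell by 1.01 ± 0.04 (adjusted p = 9.71e-10) under PEG and by 0.69 ± 0.04 (adjusted p = 3.26e-08) under ABA. In neither gene did a treated library reach the lowest MS library.

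A further 3 MYB-like genes rose under PEG and fell under ABA. Manes.16G103300, matched to AT5G56840 (chromosome 16, 25864102 to 25865892), had 69.2, 72.4 and 68.6 FPKM in the PEG libraries and 5.31, 6.47 and 5.61 FPKM in the ABA libraries, against 25.6, 25.1 and 26.1 FPKM in the MS libraries. No library of 1 group reached another group, and the log2 fold change was 1.32 ± 0.06 (adjusted p = 2.22e-09) for PEG, -2.08 ± 0.07 (adjusted p = 1.93e-10) for ABA and 3.40 ± 0.07 (adjusted p = 8.50e-13) for PEG against ABA. Manes.03G032300, matched to the same Arabidopsis gene and lower in level, averaged 8.49 ± 1.02 FPKM under PEG and 1.74 ± 0.136 FPKM under ABA, against 4.27 ± 0.105 FPKM in the MS control. It gave a log2 fold change of 0.86 ± 0.12 (adjusted p = 4.86e-05) for PEG and -1.23 ± 0.15 (adjusted p = 1.90e-05) for ABA. Manes.01G194000 is matched to AT1G70000, whose Arabidopsis product MYBD takes part in light-dependent anthocyanin accumulation. It averaged 58.9 ± 1.72 FPKM under PEG and 15.1 ± 1.09 FPKM under ABA, against 38.1 ± 0.386 FPKM in the MS control, with a log2 fold change of 0.49 ± 0.05 (adjusted p = 3.51e-06) for PEG and -1.27 ± 0.05 (adjusted p = 1.71e-09) for ABA. Photosynthesis genes moved in the same direction as these 3 in each treatment, with the summed levels given above, and their part was not tested.

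Of the cuticle regulators, MYB96 genes moved in opposite directions under PEG and ABA. MYB96, which in Arabidopsis links ABA to the activation of cuticular wax synthesis, is represented by 2 tested genes. Manes.06G092600 (chromosome 6, 20544424 to 20545772) had 31.9, 27.7 and 34.5 FPKM in the PEG libraries and 201, 194 and 202 FPKM in the ABA libraries, against 78.1, 80.2 and 79.5 FPKM in the MS libraries, and was the second most abundant MYB gene under ABA. All ABA libraries lay far above the MS libraries and all PEG libraries far below them. The log2 fold change was -1.47 ± 0.06 (adjusted p = 1.55e-09) for PEG, 1.39 ± 0.06 (adjusted p = 2.25e-09) for ABA and -2.86 ± 0.06 (adjusted p = 2.47e-12) for PEG against ABA. MYB96 Manes.14G077700 (chromosome 14, 6312109 to 6313785) had the reverse pattern at a lower level, with 32.4, 32.8 and 31.9 FPKM in the PEG libraries and 12.1, 12.6 and 11.5 FPKM in the ABA libraries, against 22.1, 20.7 and 23.4 FPKM in the MS libraries. Its log2 fold change was 0.42 ± 0.06 (adjusted p = 3.09e-05) for PEG, -0.80 ± 0.06 (adjusted p = 2.42e-07) for ABA and 1.22 ± 0.06 (adjusted p = 2.27e-09) for PEG against ABA.

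Genes of cuticular wax and cutin synthesis, a list outside the MYB family, were read alongside. Of 45 listed, 35 were tested, of which 8 rose and 15 fell under PEG and 19 rose and 11 fell under ABA, with a median log2 fold change of -0.05 and 0.32. Named after their values were seen, 2 fatty acid elongases had ABA and PEG levels on either side of the MS control. KCS1 (3-ketoacyl-CoA synthase 1, Manes.05G017600) averaged 6.64 ± 0.170 FPKM under PEG and 292 ± 5.53 FPKM under ABA, against 57.9 ± 2.25 FPKM in the MS control, and KCS6 (Manes.14G102100), the main elongase of wax precursors in Arabidopsis, averaged 22.7 ± 0.997 FPKM under PEG and 248 ± 5.04 FPKM under ABA, against 120.4 ± 5.66 FPKM in the MS control. The most abundant gene of KCS10 (Manes.16G087600) instead averaged 182 ± 4.06 FPKM under PEG and 72.2 ± 1.34 FPKM under ABA, against 179.8 ± 3.13 FPKM in the MS control, so the list did not move as 1 block.

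MYB30, an Arabidopsis activator of very-long-chain fatty acid synthesis and cell death, had copies moving in different directions. MYB30 Manes.09G135700 averaged 7.93 ± 0.334 FPKM under PEG and 6.29 ± 0.928 FPKM under ABA, against 3.77 ± 0.178 FPKM in the MS control, and rose by 0.94 ± 0.12 (adjusted p = 2.41e-05) under PEG and 0.80 ± 0.12 (adjusted p = 0.000125) under ABA. MYB30 Manes.01G090700 averaged 13.94 ± 1.28 FPKM under PEG and 6.18 ± 0.911 FPKM under ABA, against 13.6 ± 1.21 FPKM in the MS control. It fell by 1.07 ± 0.12 (adjusted p = 9.70e-06) under ABA and did not pass under PEG, at -0.10 ± 0.11 (adjusted p = 0.451). Another copy with few reads, MYB30 Manes.02G046100, fell by 1.36 ± 0.40 (adjusted p = 0.0107) under ABA. MYB16, which shapes epidermal cells and cuticle in Arabidopsis, was named after its values were seen. MYB16 Manes.01G093300 had 9.32, 12.2 and 10.4 FPKM in the PEG libraries and 3.28, 3.61 and 3.27 FPKM in the ABA libraries, against 3.37, 4.22 and 3.39 FPKM in the MS libraries, and rose by 1.41 ± 0.13 (adjusted p = 1.32e-06) under PEG. Under ABA it did not pass, at -0.05 ± 0.14 (adjusted p = 0.791).

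**Figure D3:**
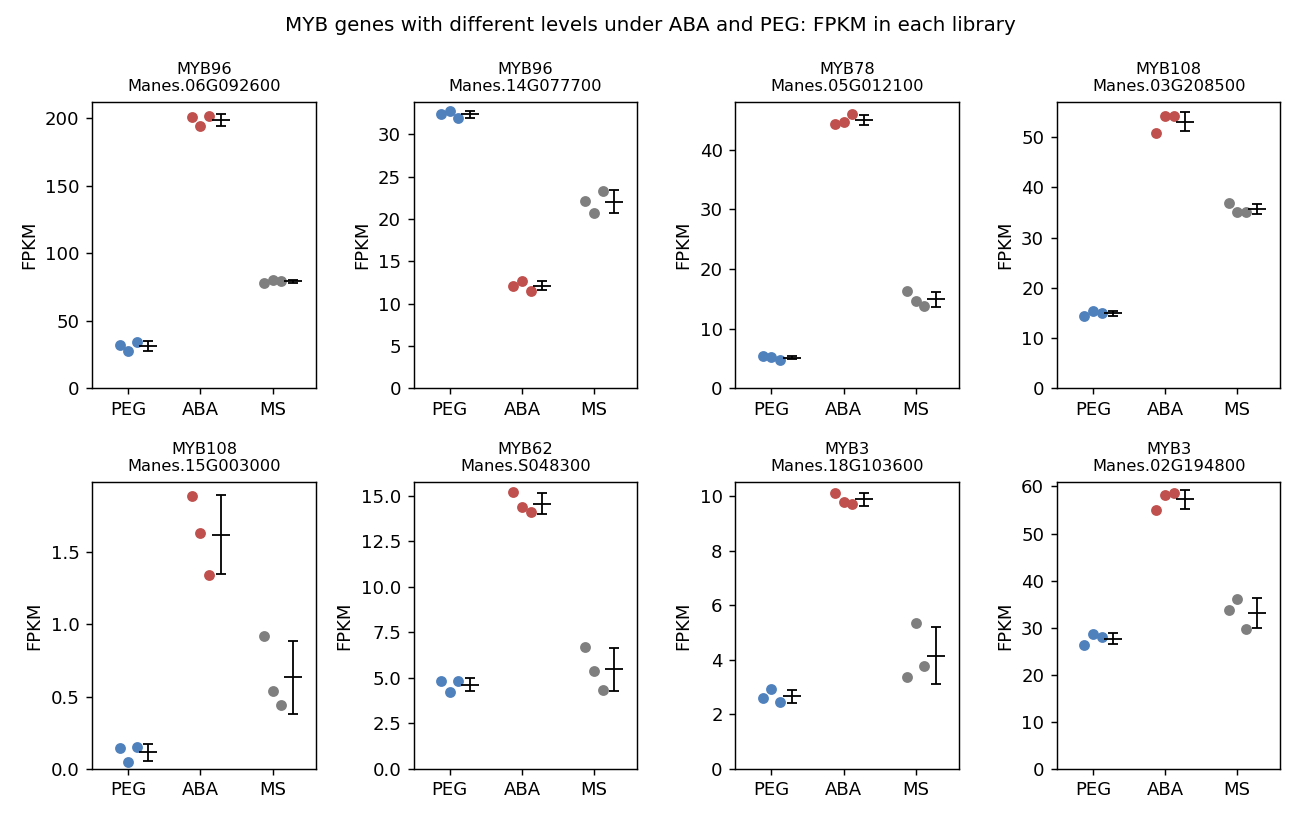
FPKM of 8 MYB genes that differed between ABA and PEG, in each library (vertical axis, linear from 0; points are the 3 libraries of PEG, ABA and the MS control, bars beside them the mean ± SD). In all panels but MYB96 Manes.14G077700 the ABA libraries lie highest, and in that panel the PEG libraries do.

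MYB78 and MYB108 Manes.03G208500 rose under ABA and fell under PEG. Members of their subgroup in Arabidopsis act in jasmonate-dependent stamen maturation, wound responses and phosphate starvation. MYB78 Manes.05G012100 (chromosome 5, 833906 to 835228) had 5.44, 5.27 and 4.81 FPKM in the PEG libraries and 44.4, 44.5 and 45.9 FPKM in the ABA libraries, against 16.4, 14.6 and 13.8 FPKM in the MS libraries. The groups do not overlap, and the log2 fold change was -1.66 ± 0.08 (adjusted p = 3.79e-09) for PEG, 1.65 ± 0.07 (adjusted p = 1.27e-09) for ABA and -3.31 ± 0.08 (adjusted p = 2.71e-12) for PEG against ABA. MYB108 Manes.03G208500 (chromosome 3, 28853444 to 28855474), whose Arabidopsis namesake limits cell death around wounds, had 14.4, 15.3 and 14.96 FPKM in the PEG libraries and 50.8, 54.1 and 54.2 FPKM in the ABA libraries, against 36.9, 35.02 and 35.1 FPKM in the MS libraries. It showed the same order, at -1.39 ± 0.05 (adjusted p = 2.54e-10) for PEG and 0.64 ± 0.05 (adjusted p = 2.03e-07) for ABA. The other tested MYB108 gene, Manes.15G003000, had 7 reads over the PEG libraries, 92 over the ABA libraries and 35 over the MS libraries. Its log2 fold change was -2.53 ± 0.50 for PEG and 1.44 ± 0.30 for ABA. It was kept by the filter on low counts only through the ABA libraries, so no test is given for it.

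MYB62 regulates phosphate starvation and gibberellin synthesis in Arabidopsis, and its 4 tested cassava genes differed, with 2 that rose under ABA. MYB62 Manes.S048300 (Scaffold00983, 59222 to 60612) had 4.81, 4.19 and 4.83 FPKM in the PEG libraries and 15.2, 14.4 and 14.1 FPKM in the ABA libraries, against 6.67, 5.36 and 4.33 FPKM in the MS libraries. It rose by 1.49 ± 0.13 (adjusted p = 1.24e-06) under ABA, with all ABA libraries above all others. Its PEG libraries overlapped the MS libraries, and the fall under PEG, at -0.37 ± 0.14 (adjusted p = 0.038), was lost on leaving out MS replicate 1 or 2 or any PEG library (adjusted p = 0.0533 to 0.178), and with library size scaling, limma or a fit of the 2 groups alone (adjusted p = 0.0654 to 0.182). MYB62 Manes.06G066600, named after its values were seen, averaged 2.77 ± 0.859 FPKM under PEG and 4.53 ± 0.270 FPKM under ABA, against 2.05 ± 0.0542 FPKM in the MS control. It rose by 1.20 ± 0.20 (adjusted p = 0.000261) under ABA and did not pass under PEG, at 0.30 ± 0.22 (adjusted p = 0.239), except on leaving out PEG replicate 1, where it was 0.53 (adjusted p = 0.00955). MYB62 Manes.05G114400 averaged 4.45 ± 0.617 FPKM under PEG and 6.93 ± 0.926 FPKM under ABA, against 7.76 ± 1.07 FPKM in the MS control, and fell by 0.93 ± 0.14 (adjusted p = 0.000116) under PEG. MYB62 Manes.14G104200 averaged 3.60 ± 0.761 FPKM under PEG and 2.32 ± 0.311 FPKM under ABA, against 2.21 ± 0.351 FPKM in the MS control. Its rise under PEG, at 0.57 ± 0.19 (adjusted p = 0.0186), was lost on leaving out MS replicate 2 or 3 or PEG replicate 2 or 3 (adjusted p = 0.0573 to 0.0759).

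Copies of MYB3 and MYB4, repressors of the phenylpropanoid pathway, differed in the group where they were highest. MYB3 and MYB4 repress cinnamate hydroxylase and ultraviolet-shielding phenolics in Arabidopsis. MYB3 Manes.02G194800 (chromosome 2, 16078163 to 16079570) had 26.4, 28.6 and 28.03 FPKM in the PEG libraries and 54.98, 58.2 and 58.6 FPKM in the ABA libraries, against 33.7, 36 and 29.6 FPKM in the MS libraries, and its log2 fold change was -0.39 ± 0.07 (adjusted p = 0.000321) for PEG and 0.85 ± 0.07 (adjusted p = 4.76e-07) for ABA. MYB3 Manes.18G103600 had 2.58, 2.93 and 2.45 FPKM in the PEG libraries and 10.1, 9.80 and 9.71 FPKM in the ABA libraries, against 3.37, 5.33 and 3.75 FPKM in the MS libraries, and its log2 fold change was -0.78 ± 0.17 (adjusted p = 0.00158) for PEG and 1.31 ± 0.15 (adjusted p = 1.03e-05) for ABA. Both were highest in the ABA libraries and lowest in the PEG libraries, without overlap. Another copy with few reads was MYB3 Manes.05G020800. It averaged 0.439 ± 0.244 FPKM under PEG and 0.329 ± 0.0465 FPKM under ABA, against 1.40 ± 0.129 FPKM in the MS control. On the log2 scale it lay at -1.81 ± 0.33 for PEG and -2.00 ± 0.35 for ABA. The filter on low counts kept it only through the MS libraries, so no test is given for it.

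MYB4 had 7 tested genes. The most abundant, MYB4 Manes.04G074900 (chromosome 4, 21070773 to 21072062), had 57.1, 56.5 and 59.1 FPKM in the PEG libraries and 26, 24.7 and 26.97 FPKM in the ABA libraries, against 33.4, 27.7 and 34.7 FPKM in the MS libraries. It rose by 0.72 ± 0.07 (adjusted p = 3.30e-06) under PEG. Its fall under ABA, at -0.24 ± 0.07 (adjusted p = 0.0141), was lost on leaving out MS replicate 3 (adjusted p = 0.06) or ABA replicate 2 (adjusted p = 0.0552). MYB4 Manes.11G094800 averaged 25.2 ± 0.759 FPKM under PEG and 18.4 ± 1.67 FPKM under ABA, against 12.1 ± 0.463 FPKM in the MS control, and rose by 0.93 ± 0.07 (adjusted p = 3.31e-07) under PEG and 0.66 ± 0.07 (adjusted p = 8.60e-06) under ABA. MYB4 Manes.02G074300 averaged 6.46 ± 0.530 FPKM under PEG and 8.76 ± 0.331 FPKM under ABA, against 8.70 ± 0.820 FPKM in the MS control, and fell by 0.56 ± 0.11 (adjusted p = 0.000801) under PEG. Manes.12G083100 and Manes.13G075100 fell under ABA, by 1.30 ± 0.15 (adjusted p = 1.24e-05) and 0.94 ± 0.17 (adjusted p = 0.000525), and did not pass under PEG. The last pair had few reads. MYB4 Manes.17G075600, with 14 reads under PEG, 10 under ABA and 46 in the MS control, was lower in both treatments. MYB4 Manes.01G147500, with 62, 5 and 14 reads in the same groups, had a log2 fold change of 1.84 ± 0.42 for PEG. The filter on low counts kept Manes.17G075600 only through the MS libraries and Manes.01G147500 only through the PEG libraries, so no test is given.

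Among the activators of flavonoid synthesis, 1 gene of a flavonol regulator had reads almost only under PEG. MYB111 and MYB12 activate flavonol synthesis in Arabidopsis. MYB111 Manes.03G201700 (chromosome 3, 28260435 to 28262154) had 2.87, 2.73 and 2.72 FPKM in the PEG libraries and 0.0605, 0.0572 and 0 FPKM in the ABA libraries, against no signal in the MS libraries, from 154 reads over the PEG libraries, 2 over the ABA libraries and none over the MS libraries. Against a floor of 3 reads over the MS libraries, this is at least 46.5-fold higher under PEG. It was kept by the filter on low counts only through the PEG libraries, so no test is given for it. The other tested MYB111 gene, Manes.01G226200, averaged 5.63 ± 0.112 FPKM under PEG and 9.06 ± 0.0778 FPKM under ABA, against 7.49 ± 0.144 FPKM in the MS control, with a log2 fold change of -0.55 ± 0.08 (adjusted p = 6.17e-05) for PEG and 0.34 ± 0.08 (adjusted p = 0.00197) for ABA. MYB12 Manes.02G005200, named after its values were seen, averaged 1.36 ± 0.201 FPKM under PEG and 3.43 ± 0.888 FPKM under ABA, against 1.65 ± 0.536 FPKM in the MS control, and rose by 1.11 ± 0.28 (adjusted p = 0.00408) under ABA. Another MYB12 gene, Manes.15G006600, was too low to be tested, with 73 reads over the PEG libraries (6 to 41 each), 18 over the ABA libraries and 9 over the MS libraries.

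MYB113, an anthocyanin activator in Arabidopsis, fell under ABA, as did MYB5 Manes.03G052800 and Manes.16G096900. MYB5, a regulator of seed coat tannins and trichomes, had 4 tested genes. MYB113 Manes.01G117100 averaged 2.40 ± 0.246 FPKM under PEG and 0.504 ± 0.0486 FPKM under ABA, against 1.31 ± 0.409 FPKM in the MS control. It fell by 1.30 ± 0.32 (adjusted p = 0.00348) under ABA, and its rise under PEG, at 0.73 ± 0.23 (adjusted p = 0.0145), was lost on leaving out MS replicate 2 (adjusted p = 0.0611) or PEG replicate 2 (adjusted p = 0.0537) and with DESeq2 (adjusted p = 0.0771). MYB5 Manes.03G052800 (chromosome 3, 4625455 to 4627086) had 22.8, 22.2 and 22.1 FPKM in the PEG libraries and 14.5, 14.96 and 13.94 FPKM in the ABA libraries, against 33.9, 32.04 and 30.3 FPKM in the MS libraries. The groups do not overlap, and it fell by 0.65 ± 0.05 (adjusted p = 4.29e-07) under PEG and by 1.08 ± 0.05 (adjusted p = 7.95e-09) under ABA. MYB5 Manes.16G096900, with 39 reads under PEG, 13 under ABA and 52 in the MS control, fell by 1.92 ± 0.42 (adjusted p = 0.00168) under ABA. MYB5 Manes.09G139900 averaged 0.140 ± 0.0582 FPKM under PEG and 0.276 ± 0.0424 FPKM under ABA, against 0.558 ± 0.0314 FPKM in the MS control. On the log2 scale it lay at -2.08 ± 0.32 for PEG and -0.94 ± 0.29 for ABA. The filter on low counts kept it only through the MS libraries, so no test is given for it. Its fall under ABA, counted above, was lost on leaving out ABA replicate 3 (adjusted p = 0.0513) and with DESeq2 (adjusted p = 0.124). The other tested MYB5 gene passed in neither treatment.

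The genes of flavonoid synthesis gave no common direction. Of 30 listed, 20 were tested, of which 8 rose and 11 fell under PEG and 11 rose and 9 fell under ABA, with medians of -0.46 and 0.45 on the log2 scale. The monolignol and phenylpropanoid list had 38 of 58 tested, with 11 rises and 14 falls under PEG and 14 rises and 11 falls under ABA.

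**Figure D4:**
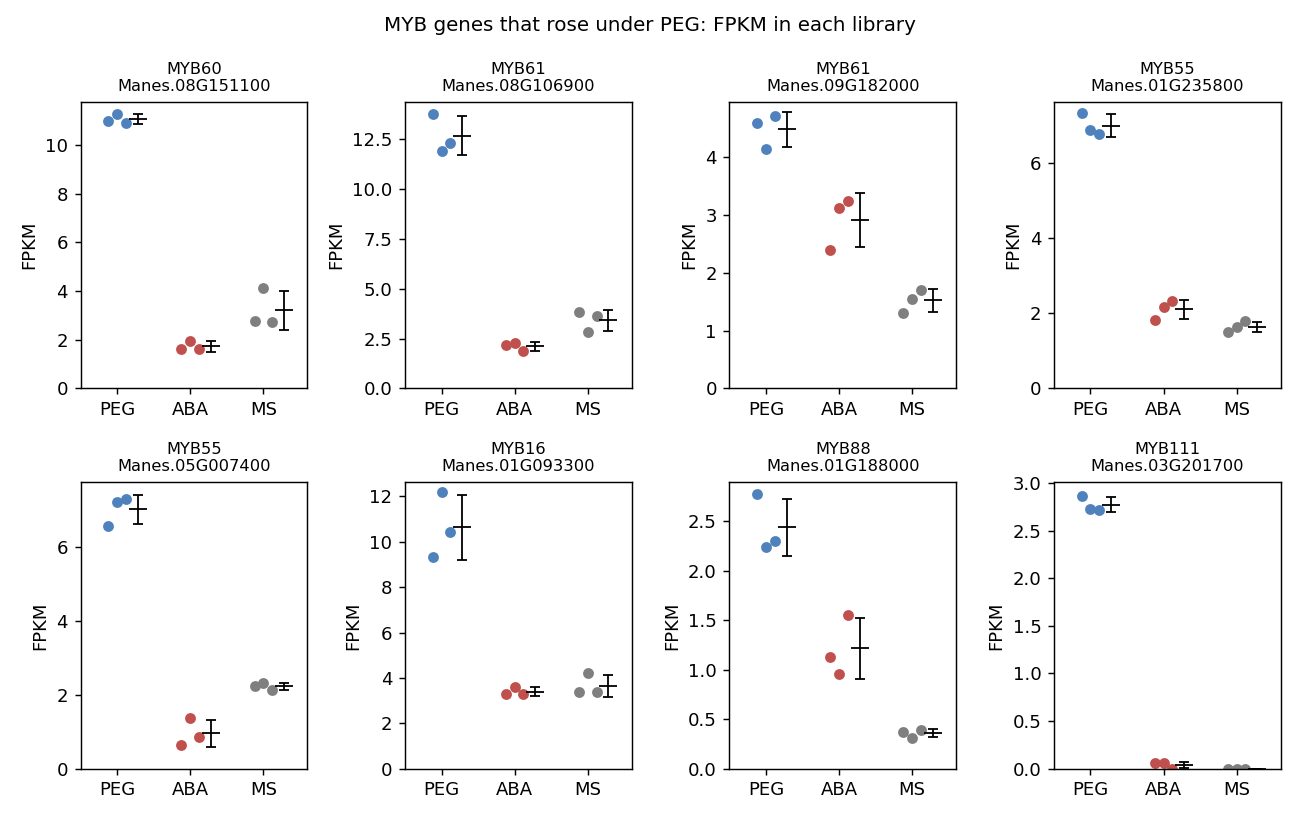
FPKM of 8 MYB genes with higher levels under PEG than in the MS control, in each library (vertical axis, linear from 0; points are the 3 libraries of PEG, ABA and the MS control, bars beside them the mean ± SD). The PEG libraries lie highest in every panel, and for MYB111 the MS libraries are at 0.

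Regulators of stomata and of secondary walls, MYB60, MYB61 and MYB55, rose under PEG. MYB60 is a guard cell factor that promotes stomatal opening in Arabidopsis. MYB60 Manes.08G151100 (chromosome 8, 31537775 to 31539310) had 11, 11.3 and 10.9 FPKM in the PEG libraries and 1.61, 1.96 and 1.60 FPKM in the ABA libraries, against 2.76, 4.14 and 2.72 FPKM in the MS libraries. All PEG libraries lay above and all ABA libraries below the MS libraries, and the log2 fold change was 1.65 ± 0.15 (adjusted p = 1.02e-06) for PEG, -0.83 ± 0.19 (adjusted p = 0.00197) for ABA and 2.48 ± 0.16 (adjusted p = 4.35e-08) for PEG against ABA. No other guard cell marker of the list served as a check, since its only further entry, found by a text match, names a different gene.

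MYB61, which in Arabidopsis narrows stomatal aperture and directs xylem and wall formation, rose in 2 copies. MYB61 Manes.08G106900 (chromosome 8, 27245228 to 27247126) had 13.8, 11.9 and 12.3 FPKM in the PEG libraries and 2.15, 2.30 and 1.87 FPKM in the ABA libraries, against 3.82, 2.82 and 3.61 FPKM in the MS libraries, and its log2 fold change was 1.75 ± 0.12 (adjusted p = 9.82e-08) for PEG and -0.63 ± 0.14 (adjusted p = 0.00201) for ABA. MYB61 Manes.09G182000 (chromosome 9, 28939300 to 28941340) had 4.60, 4.14 and 4.71 FPKM in the PEG libraries and 2.38, 3.11 and 3.24 FPKM in the ABA libraries, against 1.31, 1.55 and 1.70 FPKM in the MS libraries, and rose by 1.41 ± 0.15 (adjusted p = 4.66e-06) under PEG and 0.99 ± 0.16 (adjusted p = 0.000166) under ABA. Both copies were highest under PEG, and they moved in opposite directions under ABA. The difference of PEG from ABA in Manes.09G182000, at 0.42 ± 0.14 (adjusted p = 0.0142), was lost on leaving out ABA replicate 1 (adjusted p = 0.0625) and with DESeq2 (adjusted p = 0.052).

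MYB55, a relative of MYB61, showed the same split. MYB55 Manes.01G235800 (chromosome 1, 31731149 to 31733354) had 7.33, 6.87 and 6.77 FPKM in the PEG libraries and 1.83, 2.17 and 2.32 FPKM in the ABA libraries, against 1.49, 1.63 and 1.78 FPKM in the MS libraries, and rose by 1.96 ± 0.12 (adjusted p = 2.88e-08) under PEG. Its rise under ABA, at 0.43 ± 0.13 (adjusted p = 0.0137), was lost on leaving out MS replicate 1 (adjusted p = 0.0541) or ABA replicate 3 (adjusted p = 0.0682). MYB55 Manes.05G007400 (chromosome 5, 500229 to 502469) had 6.58, 7.22 and 7.30 FPKM in the PEG libraries and 0.655, 1.36 and 0.848 FPKM in the ABA libraries, against 2.23, 2.32 and 2.14 FPKM in the MS libraries, and its log2 fold change was 1.52 ± 0.16 (adjusted p = 4.23e-06) for PEG and -1.15 ± 0.21 (adjusted p = 0.000403) for ABA. MYB43, a secondary wall factor in Arabidopsis, rose instead under ABA, in both tested copies. MYB43 Manes.02G077400 averaged 1.49 ± 0.104 FPKM under PEG and 2.35 ± 0.328 FPKM under ABA, against 0.952 ± 0.506 FPKM in the MS control, and rose by 1.38 ± 0.29 (adjusted p = 0.00129) under ABA. MYB43 Manes.01G118700 averaged 0.658 ± 0.128 FPKM under PEG and 1.13 ± 0.390 FPKM under ABA, against 0.462 ± 0.239 FPKM in the MS control, and rose by 1.34 ± 0.38 (adjusted p = 0.00871) under ABA. Neither passed under PEG. For Manes.01G118700 the difference of PEG from ABA, at -0.98 ± 0.35 (adjusted p = 0.0236), was lost on leaving out ABA replicate 2 (adjusted p = 0.138) or PEG replicate 1 (adjusted p = 0.0784), and with limma or library size scaling (adjusted p = 0.0581 to 0.112).

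Markers of xylem and fibre outside the MYB family summed to 14.6 to 19.2 FPKM per PEG library and 8.12 to 9.37 FPKM per ABA library, against 8.07 to 11.2 FPKM per MS library. Of 12 listed, 7 were tested, with 5 rises and no fall under PEG and 2 rises and 1 fall under ABA. Genes of FLA11, a fibre wall protein, made up 10 of the 12, and genes of cellulose synthase A4, of secondary walls, the other 2. At 0 were 2 of the 12 under PEG and 4 under ABA, against 6 in the MS control, all of them FLA11 genes. These markers moved with most of the secondary wall MYB genes tested, of which 6 rose and 1 fell under PEG. The part of the markers in that result was not tested.

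Both MYB88 genes lay higher in both treatments than in the MS control. MYB88 restricts the final division of guard mother cells in Arabidopsis. MYB88 Manes.01G188000 (chromosome 1, 28544686 to 28549354) had 2.77, 2.24 and 2.30 FPKM in the PEG libraries and 1.13, 0.961 and 1.56 FPKM in the ABA libraries, against 0.375, 0.312 and 0.389 FPKM in the MS libraries, with no overlap between groups. Its log2 fold change was 2.62 ± 0.24 for PEG and 1.81 ± 0.27 for ABA. It was kept by the filter on low counts only through the PEG and ABA libraries, so no test is given for it. The other MYB88 gene, Manes.05G098700, was named after its values were seen. It averaged 10.6 ± 1.28 FPKM under PEG and 9.87 ± 0.0862 FPKM under ABA, against 5.43 ± 0.563 FPKM in the MS control, and rose by 0.82 ± 0.10 (adjusted p = 1.60e-05) under PEG and 0.92 ± 0.10 (adjusted p = 7.73e-06) under ABA. Cyclin genes, which mark dividing cells, rose more often than they fell in the same libraries, with 56 rises and 11 falls of 78 tested under PEG and 44 and 11 under ABA, and their part in this result was not tested.

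MYB105 takes part in the boundaries between organs in Arabidopsis, and 2 of its cassava copies were raised strongly by PEG. MYB105 Manes.05G103300 (chromosome 5, 8833585 to 8835809) had 1.24, 1.58 and 1.44 FPKM in the PEG libraries and 0.236, 0.470 and 0.235 FPKM in the ABA libraries, against 0.0504, 0.0944 and 0.0643 FPKM in the MS libraries, from 202, 41 and 9 reads in those groups. Its log2 fold change was 4.16 ± 0.34 for PEG and 2.20 ± 0.45 for ABA. The MS libraries, with 9 reads together, had no part in its passing the filter on low counts, so no test is given for it. MYB105 Manes.01G034800 (chromosome 1, 5348959 to 5350857) had 1.11, 1.17 and 1.18 FPKM in the PEG libraries and 0.131, 0.0824 and 0.0867 FPKM in the ABA libraries, against 0.139, 0.130 and 0.158 FPKM in the MS libraries. Its PEG libraries lay apart from all others, at 2.83 ± 0.28 against MS, and ABA was at -0.44 ± 0.47. It was kept by the filter on low counts only through the PEG libraries, so no test is given for it. A further copy, MYB105 Manes.08G151800, averaged 2.39 ± 0.266 FPKM under PEG and 1.63 ± 0.199 FPKM under ABA, against 3.46 ± 0.123 FPKM in the MS control, and fell by 0.66 ± 0.15 (adjusted p = 0.00158) under PEG and by 1.03 ± 0.16 (adjusted p = 0.000133) under ABA. MYB105 Manes.02G047300 was too low to be tested, with 25 reads over the PEG libraries, 1 over the ABA libraries and none over the MS libraries.

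Of the 16 regulators of suberin and of the root endodermis, only 5 were tested. Under PEG 3 fell and none rose, and under ABA 3 fell and 1 rose, where 35.1% and 33.4% of all genes tested fell. The falls under PEG include that of MYB9, which rests on 5 reads. MYB9 is a suberin activator in Arabidopsis. MYB9 Manes.08G064800 (chromosome 8, 8430621 to 8431892) had no signal in the PEG libraries and 1.38, 0.934 and 1.05 FPKM in the ABA libraries, against 0.210, 0.131 and 0 FPKM in the MS libraries, from no read over the PEG libraries, 52 over the ABA libraries and 5 over the MS libraries. Against a floor of 3 reads over the PEG libraries it was at least 19-fold lower under PEG than under ABA. It was kept by the filter on low counts only through the ABA libraries, so no test is given for its level there. Its fall under PEG against MS, counted above, rests on 5 reads and was lost on leaving out any PEG library, MS replicate 1 or 2 or ABA replicate 2 or 3 (adjusted p = 0.0529 to 0.123), and with limma or a replicate block (adjusted p = 0.0523 to 0.194).

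MYB36 directs the Casparian strip of the Arabidopsis root, and MYB68 is a root factor there. MYB36 Manes.08G011300 had 5.58, 4.47 and 5.32 FPKM in the PEG libraries and 5.47, 5.72 and 5.39 FPKM in the ABA libraries, against 10.4, 9.86 and 11.5 FPKM in the MS libraries, and fell by 1.18 ± 0.11 (adjusted p = 1.17e-06) under PEG and by 0.87 ± 0.11 (adjusted p = 1.90e-05) under ABA. The difference of PEG from ABA, at -0.31 ± 0.11 (adjusted p = 0.0274), was lost on leaving out ABA replicate 2 (adjusted p = 0.0744) or PEG replicate 2 (adjusted p = 0.113), and with DESeq2, limma or library size scaling (adjusted p = 0.0534 to 0.391). MYB68 Manes.09G065400 averaged 3.71 ± 0.260 FPKM under PEG and 3.91 ± 0.712 FPKM under ABA, against 9.29 ± 0.663 FPKM in the MS control, and fell by 1.45 ± 0.13 (adjusted p = 1.25e-06) under PEG and by 1.18 ± 0.13 (adjusted p = 9.56e-06) under ABA. MYB36 Manes.16G076800, with 119 reads under PEG, 13 under ABA and 57 in the MS control, fell by 2.05 ± 0.54 (adjusted p = 0.00532) under ABA, a value that was -3.13 without ABA replicate 3. Its PEG libraries all lay above the MS libraries, but it did not pass, at 0.79 ± 0.35 (adjusted p = 0.0623). Root marker genes outside the MYB family summed to 152 to 156 FPKM per PEG library and 214 to 216 FPKM per ABA library, against 302.7 to 309 FPKM per MS library, with 14 of 25 at 0 under PEG and 9 under ABA, against 12 in the MS control. Genes of RSL2, a root hair transcription factor, and of nitrate transporters were among those at 0 in all groups. The lower sums came from 1 gene of ROOT HAIR SPECIFIC 19 (Manes.12G111100), named after its values were seen. This gene averaged 30.2 ± 1.18 FPKM under PEG and 76.5 ± 1.11 FPKM under ABA, against 198 ± 4.04 FPKM in the MS control. Its drop was larger than that of the list sum, so the other root markers together were higher in both treatments. Of 10 tested, 2 rose and 2 fell under PEG and 5 rose and 1 fell under ABA, and their part was not tested.

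The GAMYB group, whose Arabidopsis members act in gibberellin signalling and are silenced by the microRNA miR159, had small differences in MYB33. MYB33 Manes.11G009900 averaged 3.18 ± 0.124 FPKM under PEG and 3.72 ± 0.124 FPKM under ABA, against 3.53 ± 0.266 FPKM in the MS control. Its fall under PEG, at -0.28 ± 0.07 (adjusted p = 0.00413), was lost with library size scaling and with limma (adjusted p = 0.0915 to 0.207), and it did not pass under ABA. MYB33 Manes.04G153700 averaged 4.54 ± 0.370 FPKM under PEG and 4.46 ± 0.346 FPKM under ABA, against 3.54 ± 0.274 FPKM in the MS control, and rose by 0.40 ± 0.08 (adjusted p = 0.00143) under ABA. Its rise under PEG, at 0.23 ± 0.08 (adjusted p = 0.0299), was lost on leaving out MS replicate 2 or 3 or PEG replicate 2 or 3 (adjusted p = 0.0744 to 0.111). MYB81 Manes.01G175900 averaged 2.59 ± 0.280 FPKM under PEG and 1.46 ± 0.488 FPKM under ABA, against 1.15 ± 0.258 FPKM in the MS control, and rose by 1.04 ± 0.24 (adjusted p = 0.0023) under PEG.

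Copies under 1 name moved in opposite directions for some names. Of the 76 Arabidopsis names, 43 were carried by 2 or more cassava genes, 135 genes in all, and 22 names had 2 or more tested genes. Among those 22, 7 names held a gene that rose and a gene that fell under PEG, 8 under ABA and 8 for PEG against ABA. Of all genes tested, 35.6% rose and 35.1% fell under PEG, and no share of split names was computed for other genes. Under PEG the rises of MYB105, MYB111 and MYB15 are of genes for which no test is given. Those of MYB33 and MYB62 were lost on leaving out 1 library. The counts of the other comparisons also include genes with these limits. The sources do not state how reads that match several copies were counted, so the split between near-identical copies is uncertain.

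**Figure D5:**
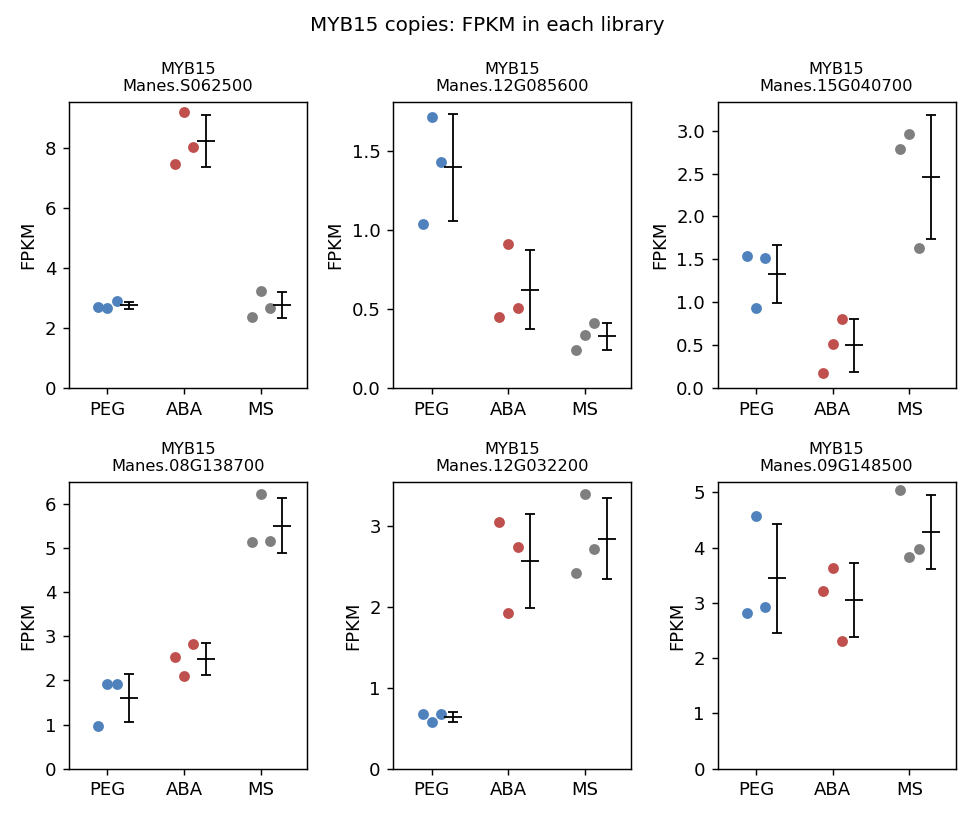
FPKM of the 6 tested MYB15 genes in each library (vertical axis, linear from 0; points are the 3 libraries of PEG, ABA and the MS control, bars beside them the mean ± SD). The ABA libraries lie highest for Manes.S062500, the PEG libraries for Manes.12G085600, and the MS libraries lie highest on average in the other 4 panels.

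MYB15 had 6 tested genes with differing patterns. In Arabidopsis MYB15 takes part in cold signalling, drought response and defence lignin. MYB15 Manes.S062500 (Scaffold01106, 12425 to 13609) had 2.72, 2.69 and 2.91 FPKM in the PEG libraries and 7.50, 9.21 and 8.04 FPKM in the ABA libraries, against 2.38, 3.24 and 2.68 FPKM in the MS libraries. It rose by 1.64 ± 0.14 (adjusted p = 1.15e-06) under ABA, and under PEG it did not pass, at -0.13 ± 0.17 (adjusted p = 0.515). MYB15 Manes.08G138700 (chromosome 8, 30428803 to 30429824) had 0.971, 1.92 and 1.93 FPKM in the PEG libraries and 2.53, 2.09 and 2.83 FPKM in the ABA libraries, against 5.14, 6.23 and 5.16 FPKM in the MS libraries, and fell by 1.91 ± 0.23 (adjusted p = 1.26e-05) under PEG and by 1.09 ± 0.21 (adjusted p = 0.000824) under ABA. MYB15 Manes.12G032200 (chromosome 12, 2506665 to 2508110) had 0.683, 0.572 and 0.673 FPKM in the PEG libraries and 3.05, 1.93 and 2.74 FPKM in the ABA libraries, against 2.43, 3.41 and 2.71 FPKM in the MS libraries. Only its PEG libraries stood apart, at -2.27 ± 0.25 (adjusted p = 7.21e-06), while ABA did not pass, at -0.09 ± 0.20 (adjusted p = 0.715).

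MYB15 Manes.12G085600 (chromosome 12, 10898699 to 10900125) had 1.04, 1.72 and 1.43 FPKM in the PEG libraries and 0.452, 0.910 and 0.507 FPKM in the ABA libraries, against 0.241, 0.339 and 0.410 FPKM in the MS libraries. Its log2 fold change was 1.91 ± 0.36 for PEG. It was kept by the filter on low counts only through the PEG libraries, so no test is given for it. Its difference of PEG from ABA, counted above, was lost on leaving out ABA replicate 1 or 3 or PEG replicate 2 (adjusted p = 0.0626 to 0.0692) and with DESeq2 (adjusted p = 0.0653). MYB15 Manes.15G040700 (chromosome 15, 3037966 to 3039762) had 1.54, 0.938 and 1.52 FPKM in the PEG libraries and 0.180, 0.511 and 0.807 FPKM in the ABA libraries, against 2.78, 2.97 and 1.63 FPKM in the MS libraries, and fell by 2.21 ± 0.39 (adjusted p = 0.000373) under ABA. Its fall under PEG, at -1.01 ± 0.32 (adjusted p = 0.0143), was lost on leaving out MS replicate 2 (adjusted p = 0.0595) or PEG replicate 2 (adjusted p = 0.0562), and with limma on log2(FPKM + 0.1) (adjusted p = 0.102). The difference of PEG from ABA was lost on leaving out ABA replicate 1 or 2 or PEG replicate 1 or 3 (adjusted p = 0.0545 to 0.0866). MYB15 Manes.09G148500, named after its values were seen, averaged 3.44 ± 0.982 FPKM under PEG and 3.05 ± 0.675 FPKM under ABA, against 4.28 ± 0.666 FPKM in the MS control and passed in no comparison. MYB14 Manes.13G033900, a relative of MYB15 named in the same way, averaged 3.84 ± 0.289 FPKM under PEG and 1.11 ± 0.126 FPKM under ABA, against 2.04 ± 0.387 FPKM in the MS control, with a log2 fold change of 0.78 ± 0.17 (adjusted p = 0.00118) for PEG and -0.80 ± 0.21 (adjusted p = 0.00478) for ABA.

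Of the MYB genes that lie next to each other in the genome, with at most 1 gene between them, 1 pair had both members tested. MYB78 Manes.05G012100, described above, and the MYB-like gene Manes.05G012300 are separated by 1 gene on chromosome 5. The Arabidopsis match of Manes.05G012300, AT2G47210, encodes SWC4, a subunit of a chromatin remodelling complex. Named after its values were seen, it averaged 39.7 ± 1.10 FPKM under PEG and 37.2 ± 1.48 FPKM under ABA, against 29.1 ± 1.02 FPKM in the MS control, and rose by 0.31 ± 0.04 (adjusted p = 5.64e-05) under PEG and 0.42 ± 0.04 (adjusted p = 6.34e-06) under ABA, so that under PEG the neighbours moved in opposite directions.

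Genes described as MYB-like in other words, which the rule does not take, numbered 128. Of these 109 were tested, of which 43 rose and 39 fell under PEG and 41 rose and 36 fell under ABA. Changes of at least 2-fold made up 20.2% of them under PEG and 16.5% under ABA, beside the 40.0% of the members in both comparisons and 22.1% and 19.4% of all genes.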

How the data were processed

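Read counts and FPKM values per gene for the 9 libraries were taken from the authors' deposited table. HISAT2 2.0.4 and StringTie 1.3.0 are listed by the submitters' notes. Not given in the sources used here are the counting tool, its strand setting and its treatment of reads that match several genes. Reads are not counted as molecules, so read floors cover counting error only. The authors' FPKM values, deposited per transcript length and library depth, are given as levels. The deposited counts went into edgeR 4.0.16 under R 4.3.3 (TMM scaling, filterByExpr, quasi-likelihood test, 1 fit of all 9 libraries, common biological coefficient of variation 0.103), with Benjamini-Hochberg adjustment over 23984 genes and a threshold of 0.05. The study's own methods tested FPKM values gene by gene, which counts made unnecessary. Replicates of a group differed by more than sampling alone. No batch is labelled.

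Groups came from the sample titles. The members and all gene lists were chosen with earlier results of these data known. Genes were named where they were among the 10 largest rises or falls in either treatment (at least 1 FPKM, groups not overlapping), the 10 most abundant, copies of 1 name moving in opposite directions, the 2 smallest p-values of a role group, or at 0 reads in 1 group with 30 or more in another, and a few were added after their values were seen. Alternatives were DESeq2 1.42.0, limma 3.58.1 on log2(FPKM + 1) and log2(FPKM + 0.1), other scalings and filters, a replicate block, fits of 2 groups and leaving out each library. A list of partner proteins of MYB factors matched no gene, and sequences of the members were not used here.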

Additional observations from a re-analysis of the deposited data

How the results depend on the processing

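Every count of MYB genes that rose or fell stayed within 1.5 times its value under each alternative except a 2-fold minimum, which left 18 rises and 18 falls for PEG against MS, 16 and 20 for ABA against MS, and 21 and 15 for PEG against ABA. Leaving out 1 library at a time gave 29 to 34 rises and 27 to 31 falls for PEG against MS, 27 to 30 and 33 to 35 for ABA against MS, and 33 to 37 and 24 to 31 for PEG against ABA. With the replicate number as a block, the counts were 32 and 29, 30 and 34, and 35 and 27. Same-numbered samples had deviations that correlated at -0.0385 to 0.0682. Among the PEG libraries, each MS library correlated best with that of its own number (0.0682, 0.0311 and 0.0374). Pairs with ABA libraries did not show this. The correlations are small, and whether samples of 1 number share more than the number cannot be told from them. The calls of 67 tested genes, all named in the text or by the naming rule, were followed through the alternatives. Of these genes, 55 passed for PEG against MS, 55 for ABA against MS and 56 for PEG against ABA. Under every alternative that gave them a value, 48, 52 and 46 kept their call. No called value changed sign.

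Sign changes were confined to small differences that did not pass the test. For PEG against ABA, MYB-like Manes.01G083900 (0.02) was -0.01 with DESeq2 size factors and with DESeq2, and -0.02 to 0.08 on leaving out 1 library. With library size scaling, limma on log2(FPKM + 1) and limma on log2(FPKM + 0.1), PEG against MS was 0.04, 0.03 and 0.04 for MYB30 Manes.01G090700 (-0.10), and PEG against ABA was 0.03, 0.02 and 0.03 for MYB33 Manes.04G153700 (-0.17), 0.10, 0.08 and 0.09 for MYB88 Manes.05G098700 (-0.10), 0.09 in all for MYB-like Manes.05G012300 (-0.10), and 0.17, 0.12 and 0.16 for MYB15 Manes.09G148500 (-0.02). MYB15 Manes.S062500 (-0.13, PEG against MS) was 0.01 in both limma fits. On leaving out 1 library, PEG against ABA ran from -0.24 to 0.56 for MYB3 Manes.05G020800, from -0.10 to 0.56 for MYB4 Manes.17G075600 and from -0.29 to 0.12 for MYB15 Manes.09G148500, and ABA against MS ran from -0.23 to 0.09 for MYB15 Manes.12G032200 and from -0.10 to 0.07 for MYB16 Manes.01G093300. Without the filter on low counts 157 MYB genes were tested, with 37 rises and 35 falls for PEG against MS, 35 and 36 for ABA against MS, and 41 and 37 for PEG against ABA. For the 11 MYB genes with no read, this depth cannot show a difference. With 3 libraries a group, an exact permutation test of 1 gene cannot go below p = 0.1.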

Other observations

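Some members too low to be tested had reads mostly in 1 group, and these are given as read totals over the 3 libraries of a group, chosen after their values were seen. MYB121 Manes.02G058900 had 2 reads under PEG and 35 under ABA, against 5 in the MS control. MYB29 Manes.06G090300, whose Arabidopsis namesake regulates glucosinolates, had none under PEG and 10 under ABA, against 12 in the MS control. MYB305 Manes.03G156900 had none under PEG and 10 under ABA, against none in the MS control.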
